A study of Mus musculus with 20 samples.

Results

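The genes described here are the mouse translation initiation factors, taken as every gene whose symbol is Eif followed by a digit from 1 to 5, with Eif2s3y left out. The rule gave 54 of the 34937 genes in the count files. It covers the subunits of eIF2, eIF2B and eIF3, the factors eIF1, eIF1A, eIF4A, eIF4B, eIF4E, eIF4G, eIF4H, eIF5, eIF5A and eIF5B, the eIF2 kinases and the proteins that bind and block eIF4E. By its spelling it also takes in Eif2c5, an Argonaute-type symbol with no place among these roles, which had no read in any embryo. Of the 54 genes, 51 passed the filter on low counts, and Eif4e1b, Eif2ak2 and Eif2c5 did not.

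The RNA came from single 8-cell (8C) embryos at E2.5, and the question the design puts is how loss of the maternal pool of G9a, the histone H3K9 methyltransferase encoded by Ehmt2, changes their transcripts. Counts were analysed for 9 control embryos (Ehmt2Cntr) and 10 embryos without maternal G9a (Ehmt2Mat). Control embryos had Ehmt2F/+ mothers and Ehmt2Mat embryos had Ehmt2F/- mothers, and mothers of both kinds carried Zp3-Cre, which deletes the conditional allele in the growing oocyte. All embryos came from natural matings with Ehmt2+/- males on a mixed background, looked normal at collection and had their zona pellucida removed. By their own genotype, 6 control embryos were +/+ and 3 were +/-, while 5 Ehmt2Mat embryos were +/- (Ehmt2M/+) and 5 were -/- (Ehmt2M/Z). No label gives the mother or litter of an embryo, so the p-values measure the spread between embryos, and maternal genotype and mother cannot be told apart.

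Initiation begins when eIF2, carrying GTP and the initiator tRNA, joins the small ribosomal subunit together with eIF1, eIF1A, eIF3 and eIF5. The complex is brought to the capped end of an mRNA by eIF4E, eIF4G and the helicase eIF4A, and scans to a start codon, where eIF5 triggers GTP hydrolysis and eIF5B joins the large subunit. eIF2B then reloads eIF2 with GTP. Cells slow initiation mainly by phosphorylating eIF2, which blocks eIF2B, and by holding eIF4E in complexes with 4E-BP proteins, which mTORC1 releases. The early embryo takes over from an oocyte stock of mRNAs and proteins, and makes its own initiation factor mRNAs from the onset of zygotic transcription.

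A control library held 12985149 to 30053248 counts and an Ehmt2Mat library 8231646 to 30602434, so that 3 counts correspond to 0.098 to 0.364 CPM, a count scaled to the library total. The counts of an embryo cover whole genes, and those of Ehmt2 itself, 142 ± 59.7 CPM in controls (SD, n = 9) and 102 ± 32.7 CPM in Ehmt2Mat embryos (SD, n = 10), include RNA from the deleted allele and do not check the labels. Of the 9 markers of the 8C embryo, Pou5f1, Tead4, Tfap2c, Sall4, Dppa3, Cdh1 and Zfp42 had at least 231 counts in every embryo, while the lowest count was 1 for Krt18 and 0 for Krt8, each in a control. Tead4 and Tfap2c were called higher in Ehmt2Mat embryos and Sall4 lower. Ovgp1, which encodes the oviduct glycoprotein, was above 100 CPM in 6 embryos, namely Ehmt2Mat 1, 2, 3, 4 and 6 and control 10, and reached 2799 CPM in Ehmt2Mat 3, the embryo with the lowest total. The 4 oviduct markers together gave 0.0904 to 384 CPM in a control and 9.60 to 2842 CPM in an Ehmt2Mat embryo, and Pax8, Foxj1 and Muc1 stayed at or below 27.4 CPM. The 6 blood markers summed to at most 39.7 CPM in controls and 191 CPM in Ehmt2Mat embryos. Most of these highest sums was Lyz2, at 31.3 CPM in control 10 and 182 CPM in Ehmt2Mat 3, both with Ovgp1 above 100 CPM. No globin gene was above 4.01 CPM. The 11 cumulus and granulosa cell markers summed to 23.2 to 110 CPM in controls and 42.1 to 167 CPM in Ehmt2Mat embryos. Most of this was Amhr2, present in every embryo at 22.4 to 110 CPM in controls and 42.1 to 164 CPM in Ehmt2Mat embryos. Inha reached 38.2 CPM in Ehmt2Mat 3 and at most 0.127 CPM in controls. In all embryos 5 of the 11 were at 0, including Fshr, Foxl2 and Has2. The 9 oocyte markers summed to 42.2 to 285 CPM in controls and 104 to 336 CPM in Ehmt2Mat embryos. Of the 7 tested, only Oosp1 was called, with means of 11.8 CPM in controls and 76.7 CPM in Ehmt2Mat embryos. Only 2 of the 7 log2 fold changes were positive, and their median was -0.46. Counts of called initiation factors are therefore also given without the 6 embryos with Ovgp1 above 100 CPM, a choice made after the data were seen.

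Initiation factor mRNAs made up 2.08% ± 0.163 of all counts in controls (SD, n = 9) and 2.08% ± 0.163 in Ehmt2Mat embryos (SD, n = 10). Their levels spanned a wide range when set per length, as CPM per kilobase of exon (RPKM). In controls the highest level was that of Eif5a, the hypusine-carrying factor that resolves stalled ribosomes, at 748 ± 241 RPKM (SD, n = 9). Eif5 followed at 571 ± 176 RPKM and the eIF3 subunit gene Eif3g at 380 ± 99.9 RPKM. Below them, 12 genes ran from Eif3h (290 ± 67.1 RPKM) to Eif1a (202 ± 47.3 RPKM), with neighbours differing by less than their SDs. The next gene, Eif2s2 (164 ± 42.0 RPKM), also differed from Eif1a by less than their SDs, so the run has no sharp end. Among the 12 were Eif4e (212 ± 52.7 RPKM), Eif4g2 (238 ± 112 RPKM), Eif4ebp1 (222 ± 107 RPKM), Eif3c (210 ± 51.1 RPKM) and Eif3a (210 ± 61.1 RPKM). In all, 38 of the 54 genes averaged at least 100 CPM in controls and 6 averaged under 10 CPM.

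Within a role, 1 or a few paralogs carried most of the level. Eif4g2, which encodes the eIF4G relative DAP5 without an eIF4E-binding site, stood at 238 ± 112 RPKM in controls, the canonical scaffold gene Eif4g1 at 40.5 ± 15.3 RPKM and Eif4g3 at 2.70 ± 1.70 RPKM. Among the eIF2 kinases, the heme-regulated Eif2ak1 had 33.2 ± 6.26 RPKM, the endoplasmic reticulum kinase gene Eif2ak3 (PERK) 2.58 ± 1.92 RPKM and the amino acid sensor gene Eif2ak4 (GCN2) 0.387 ± 0.428 RPKM. The double-stranded RNA kinase gene Eif2ak2 (PKR) was at 0 in 15 of 19 embryos and never exceeded 59 counts. Among the cap-binding proteins, Eif4e exceeded Eif4e2 (22.3 ± 5.39 RPKM) and Eif4e3 (4.75 ± 3.92 RPKM), and the oocyte-type gene Eif4e1b was at 0 in 8 embryos, with at most 3.52 CPM elsewhere. Eif5a exceeded Eif5a2 (1.18 ± 1.29 RPKM). The plot of levels shows these gaps between paralogs in both groups.

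**Figure D1:**
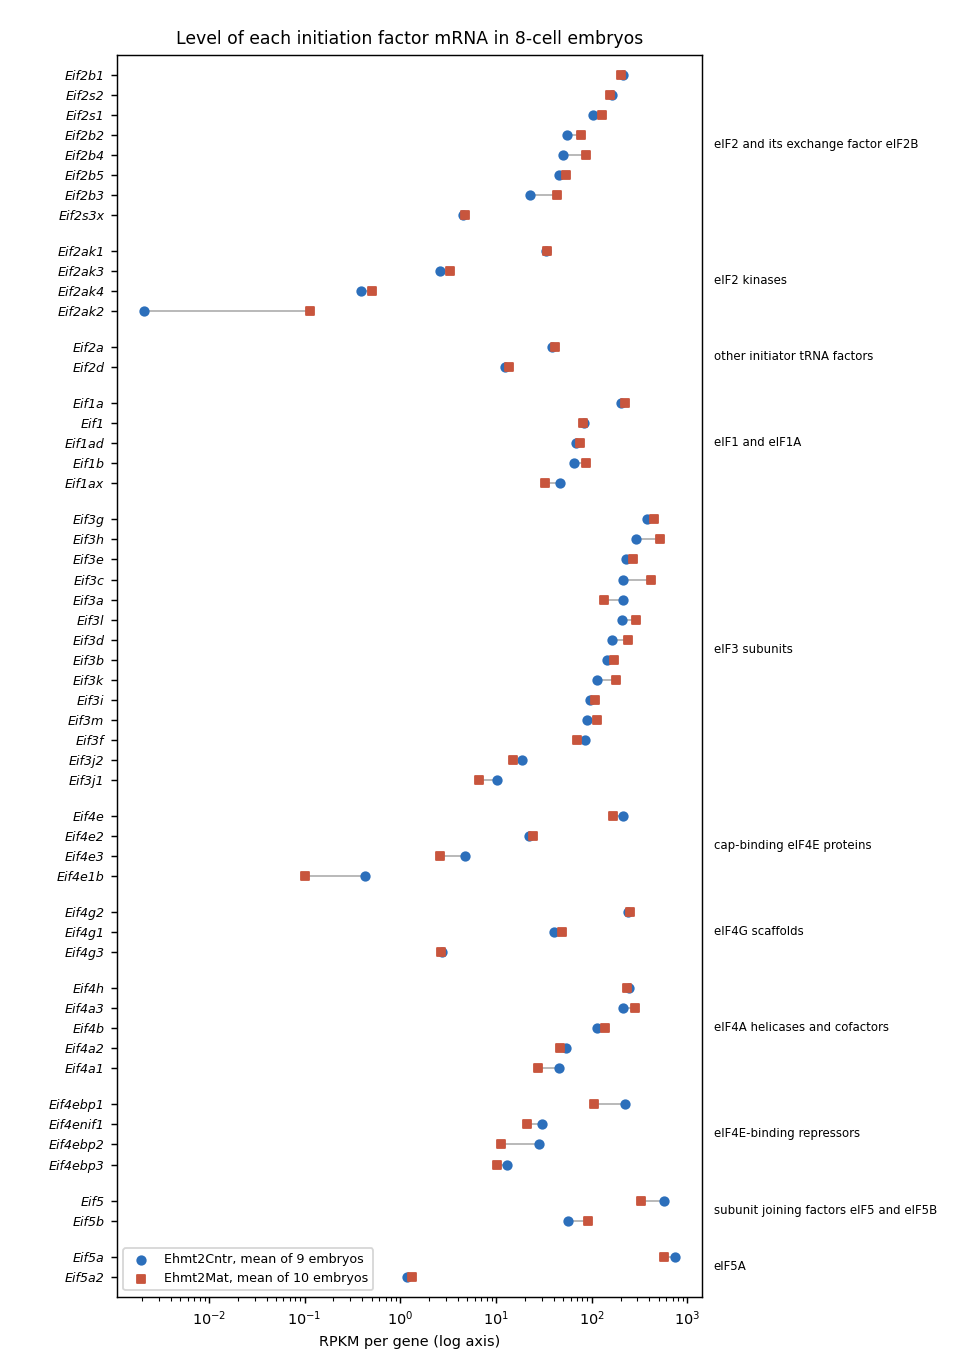
Level of 53 initiation factor mRNAs in RPKM (log axis), grouped by role; blue circles are means of 9 Ehmt2Cntr embryos, red squares means of 10 Ehmt2Mat embryos, and grey lines join them. Eif2c5, at 0 in every embryo, is not drawn. Eif5a, Eif5 and Eif3g lead in controls at 748, 571 and 380 RPKM, and most pairs of means lie close together.

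These levels depend on the sequence that reads can be assigned to. The cDNA protocol favours the 3′ ends of transcripts, so RPKM understates genes with long exons relative to short ones, and only 6 of the 10 highest genes per length were among the 10 highest in CPM. Eif2s3x, the X-linked gene for the eIF2 gamma subunit, had only 4.52 ± 1.70 RPKM in controls, against 104 ± 15.2 RPKM for the alpha subunit gene Eif2s1 and 164 ± 42.0 RPKM for the beta subunit gene Eif2s2. Of all 50-base windows in the last 500 bases of its annotated transcripts, 59.2% also occur in another gene. The same share was 36.0% for Eif4a1, 44.1% for Eif3d, 49.8% for Eif3m and 88.9% for Eif3j2, which mostly shares its windows with Eif3j1. Their part in these levels was not tested. For the called genes the share was 0% for Eif2b3, Eif2b4, Eif3a, Eif3c and Eif4ebp1, 1.98% for Eif5, 11.2% for Eif5b and 23.8% for Eif3h.

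In Ehmt2Mat embryos, 8 of the 51 tested initiation factor mRNAs changed at an adjusted p under 0.05. Eif3c, Eif2b3, Eif3h, Eif2b4 and Eif5b rose, and Eif3a, Eif5 and Eif4ebp1 fell. The changes had opposite signs inside the eIF3 complex and within the subunit joining step, and the 8 ratios of Ehmt2Mat to control lay between 0.472 (Eif4ebp1) and 1.97 (Eif3c).

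Of all 11754 genes tested, 4.37% were called higher, 4.98% lower and 9.35% in either direction. Among the initiation factors 9.80% were called higher, 5.88% lower and 15.7% in either direction. The larger share went with detection: among genes with at least 10 counts in every embryo, 9 of 47 initiation factors (19.1%) and 19.2% of all genes were called. The median log2 fold change of the 51 genes was 0.13, against -0.04 over all tested genes, with 31 positive and 20 negative values. At an unadjusted p under 0.05 there were 16 of the 51 (31.4%), against 23.3% of all genes. In bulk RNA of an embryo a change per cell and a change in the number of cells cannot be told apart.

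**Figure D2:**
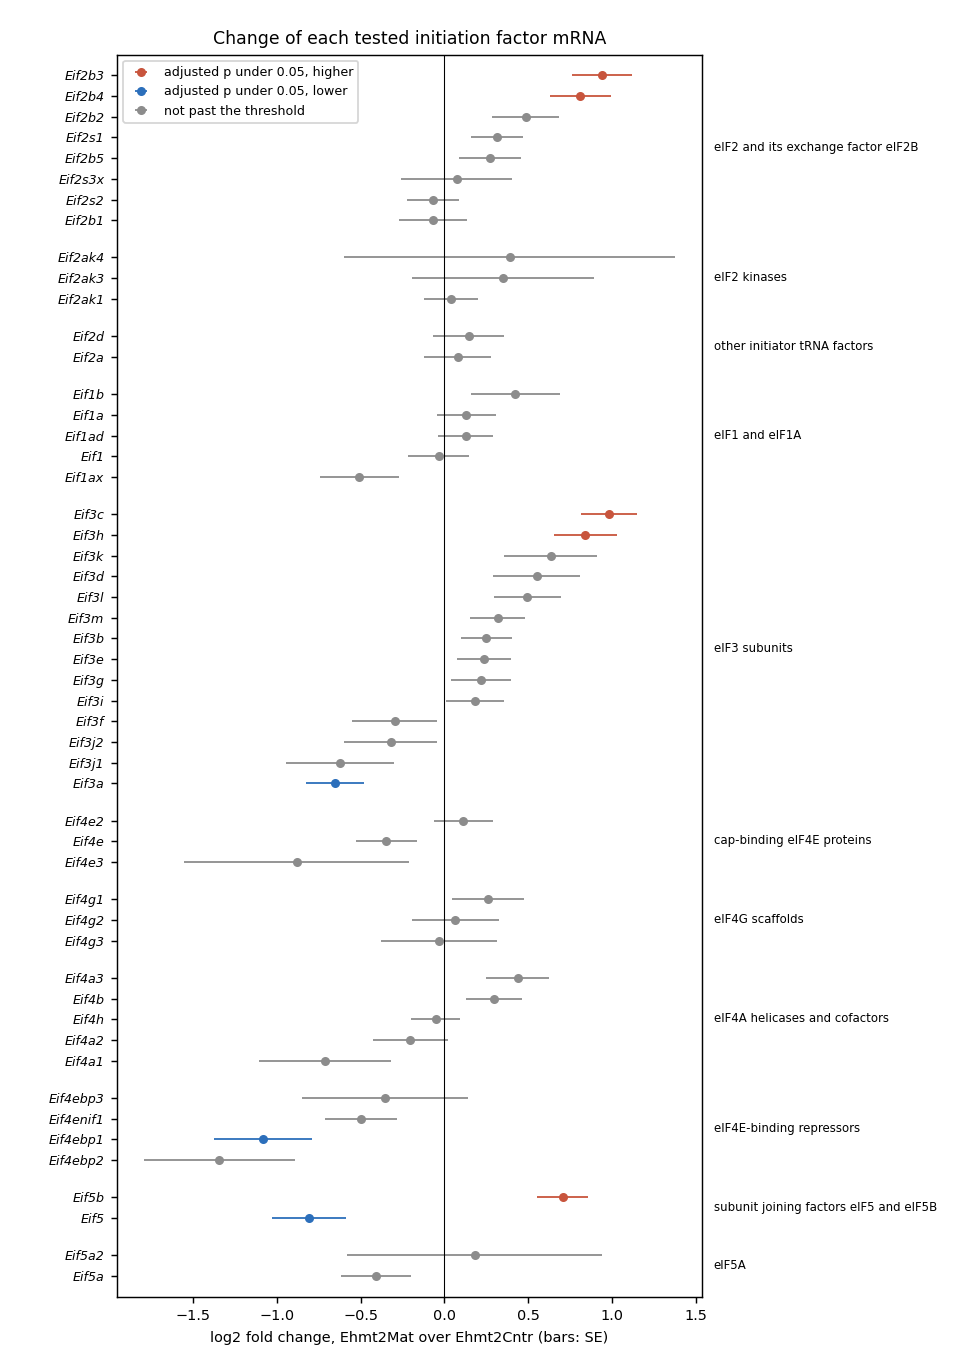
Log2 fold change of the 51 tested initiation factor mRNAs, Ehmt2Mat over Ehmt2Cntr, grouped by role; points are edgeR estimates, bars their SE, red and blue mark genes higher or lower at an adjusted p under 0.05 and grey the others. The 5 higher genes lie between 0.71 and 0.98, the 3 lower genes between -1.08 and -0.65, and all 4 genes for eIF4E-binding repressors lie below 0.

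Of the 5 genes for eIF2B, the exchange factor of eIF2, 2 rose and 3 did not pass the threshold. Eif2b3 encodes its gamma subunit, part of the catalytic side with the epsilon subunit, and lies at chr4:117019402-117087306 (GRCm38, plus strand). It spanned 66.3 to 187 CPM (median 152) over the controls and 231 to 375 CPM (median 277) over the Ehmt2Mat embryos. All 10 Ehmt2Mat embryos lay above every control, as in 0.34% of all tested genes, and no other initiation factor separated the groups without overlap. Its log2 fold change was 0.94 ± 0.18 (SE; adjusted p = 0.00205). Eif2b4, at chr5:31187558-31193430 (minus strand), encodes the delta subunit of the regulatory core that binds phosphorylated eIF2. It spanned 82.7 to 220 CPM (median 122) over the controls and 173 to 325 CPM (median 217) over the Ehmt2Mat embryos. Control 7 alone reached into the Ehmt2Mat range, and the log2 fold change was 0.81 ± 0.18 (SE; adjusted p = 0.00601). Without the 6 embryos with Ovgp1 above 100 CPM, Eif2b3 kept its call (log2 fold change 0.98) and Eif2b4 did not (0.82, adjusted p = 0.0668).

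The other eIF2B and eIF2 genes did not pass the threshold. The log2 fold change was 0.48 ± 0.20 (SE; adjusted p = 0.135) for the beta subunit gene Eif2b2, 0.27 ± 0.19 for the catalytic epsilon subunit gene Eif2b5 and -0.07 ± 0.20 for the alpha subunit gene Eif2b1. Eif2b1 had the highest level of the 5 in controls, 214 ± 68.0 RPKM. For the subunits of eIF2 itself the log2 fold changes were 0.31 ± 0.15 (Eif2s1), -0.07 ± 0.15 (Eif2s2) and 0.07 ± 0.33 (Eif2s3x). The summed level of the 8 genes was 2557 ± 433 CPM in controls (SD, n = 9) and 2871 ± 370 CPM in Ehmt2Mat embryos (SD, n = 10).

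eIF3, the large scaffold that holds the small ribosomal subunit open for mRNA, contributed 14 genes, of which 2 rose, 1 fell and 11 were not called. Eif3c, at chr7:126546455-126566411 (minus strand), encodes a core subunit that contacts eIF1 and eIF5. It spanned 503 to 987 CPM (median 644) over the controls and 973 to 2022 CPM (median 1354) over the Ehmt2Mat embryos. In 9 of 10 Ehmt2Mat embryos it lay above every control. Its log2 fold change of 0.98 ± 0.17 (SE; adjusted p = 0.000948) was the highest of the 51. Eif3h, at chr15:51786558-51865481 (minus strand), encodes a subunit of the MPN-domain pair with eIF3f. It spanned 217 to 456 CPM (median 387) over the controls and 443 to 1104 CPM (median 597) over the Ehmt2Mat embryos, and 9 of 10 Ehmt2Mat embryos exceeded every control. Its log2 fold change was 0.84 ± 0.19 (SE; adjusted p = 0.00601), and 0.81 with an adjusted p of 0.0551 without the 6 embryos with Ovgp1 above 100 CPM.

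Eif3a, which encodes the largest eIF3 subunit and the platform for the others, moved the other way. It lies at chr19:60761116-60790693 (minus strand) and spanned 773 to 1620 CPM (median 923) over the controls and 365 to 819 CPM (median 744) over the Ehmt2Mat embryos. In 8 of 10 Ehmt2Mat embryos it lay below every control, and 8 of 9 controls lay above every Ehmt2Mat embryo. It fell by 0.65 ± 0.17 on the log2 scale (SE; adjusted p = 0.0193). The call was lost without the 6 embryos with Ovgp1 above 100 CPM (-0.61, adjusted p = 0.152). With these opposite changes the balance of the 2 transcripts did not overlap between groups: the log2 ratio of Eif3c to Eif3a counts lay between -1.60 and 0.14 in the controls (median -0.43) and between 0.62 and 2.47 in the Ehmt2Mat embryos (median 0.75). This pair was picked after its values were seen, and the ratio was not tested.

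**Figure D3:**
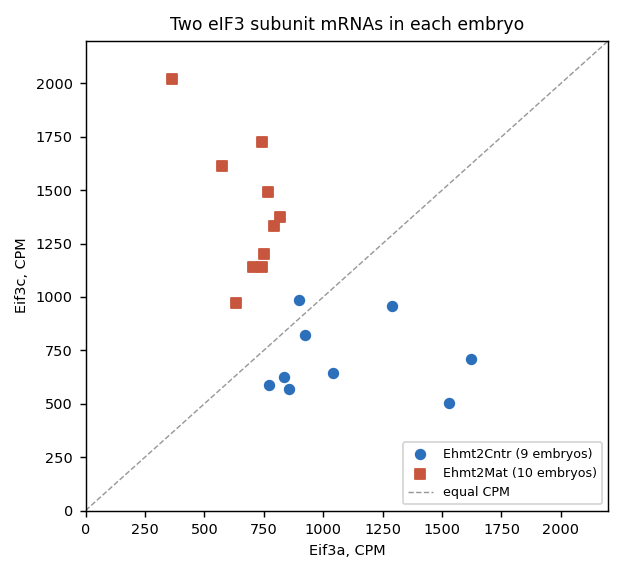
CPM of Eif3a (x axis) and Eif3c (y axis) in each embryo; blue circles are 9 Ehmt2Cntr embryos, red squares 10 Ehmt2Mat embryos, and the dashed line marks equal CPM. Every Ehmt2Mat embryo lies above the line, at log2 ratios from 0.62 to 2.47, and 8 of 9 controls lie below it. The controls have log2 ratios from -1.60 to 0.14.

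Among the other 11 eIF3 genes, 8 log2 fold changes were positive, from 0.18 (Eif3i) to 0.63 (Eif3k), and 3 were negative, for Eif3f (-0.30), Eif3j2 (-0.32) and Eif3j1 (-0.62). Eif3j1 and Eif3j2 encode the loosely bound subunit and share sequence, so their counts are uncertain. Eif3d, the subunit that can itself bind the cap, had a log2 fold change of 0.55 ± 0.26 (SE; adjusted p = 0.203). It shares 32.7% of its exonic bases with Gm17638, which rose from 67.6 to 143 CPM, and reads on the shared bases were counted for both genes. The summed level of the 14 genes was 5129 ± 818 CPM in controls (SD, n = 9) and 6315 ± 1075 CPM in Ehmt2Mat embryos (SD, n = 10), with Eif3g the highest per length in controls and Eif3c the one with the largest change.

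The factors of start codon recognition and subunit joining also split. Eif5, at chr12:111538101-111546753 (plus strand), encodes the GTPase-activating protein of eIF2. It had the highest CPM of all 54 genes in controls, with 1183 to 3252 CPM (median 2416), and spanned 820 to 2284 CPM (median 1264) over the Ehmt2Mat embryos. The groups overlapped, with 4 of 10 Ehmt2Mat embryos below every control and all 10 below the control median. The log2 fold change was -0.81 ± 0.22 (SE; adjusted p = 0.0207), and it was -0.49 with an adjusted p of 0.384 without the 6 embryos with Ovgp1 above 100 CPM, among which Ehmt2Mat 1, 2, 3 and 4 held the 4 lowest values of Eif5. Eif5b, at chr1:37998010-38055579 (plus strand), encodes the GTPase that joins the ribosomal subunits. It spanned 364 to 832 CPM (median 523) over the controls and 751 to 1124 CPM (median 876) over the Ehmt2Mat embryos. Only control 5 reached into the Ehmt2Mat range, and the log2 fold change was 0.71 ± 0.15 (SE; adjusted p = 0.0048) and 0.75 without those 6 embryos, where it remained called. Rev1, whose exons overlap 16.8% of those of Eif5b, had a log2 fold change of -0.34 (adjusted p = 0.545).

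**Figure D4:**
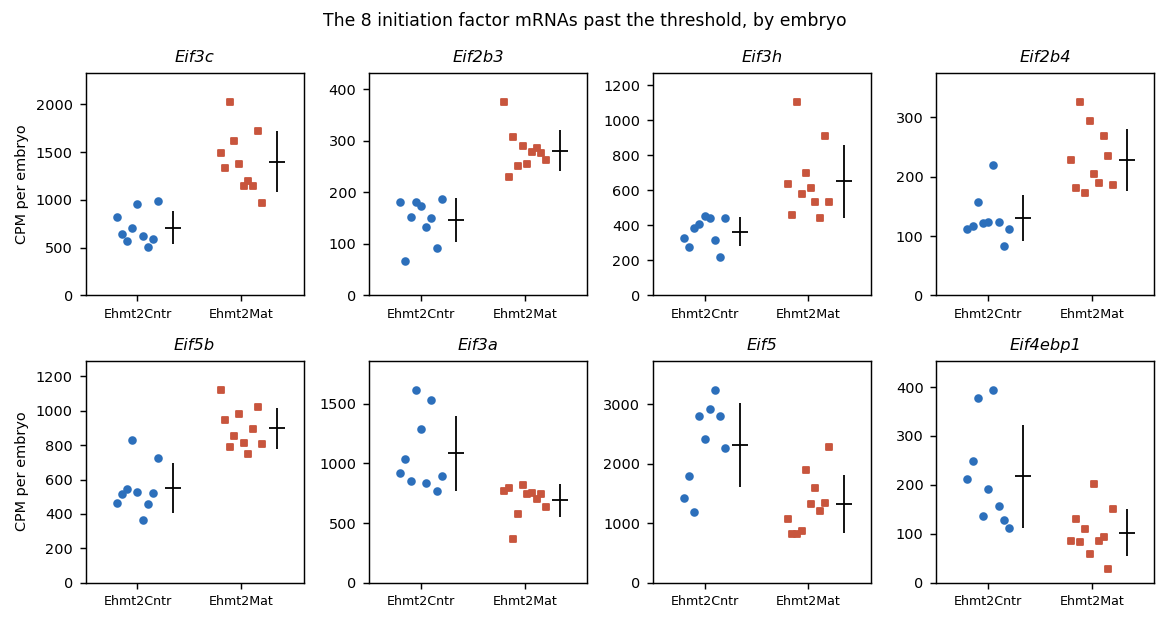
CPM of the 8 called initiation factor mRNAs in each embryo (blue circles, 9 Ehmt2Cntr; red squares, 10 Ehmt2Mat; y axes start at 0); the bar beside each group is the mean with its SD. Eif2b3 is the only gene of the 8 without overlap, with 66.3 to 187 CPM in controls and 231 to 375 CPM in Ehmt2Mat embryos.

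The sequences before the start sites of the genes that moved in opposite directions within the same complex or step are given here, since they are the regulatory sequence nearest to the change. They are taken from the 150 bases upstream of the RefSeq start site (GRCm38.p6), read 5′ to 3′ on the gene's strand, and end where the transcript annotated in the count files begins. For Eif3c this leaves 105 bases, without the 45 bases next to the RefSeq start site. Capitals mark CCGGAAG, one form of ETS factor site, and CCAAT, each searched on both strands and not overlapping each other here. Other forms of ETS factor site were not searched. Eif3c lies at chr7:126566412-126566516 and Eif3a at chr19:60790694-60790843 (both minus strand), and Eif5b at chr1:37997860-37998009 and Eif5 at chr12:111537951-111538100 (both plus strand).
Eif3c: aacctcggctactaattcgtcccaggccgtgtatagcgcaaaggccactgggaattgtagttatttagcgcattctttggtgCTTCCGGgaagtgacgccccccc
Eif3a: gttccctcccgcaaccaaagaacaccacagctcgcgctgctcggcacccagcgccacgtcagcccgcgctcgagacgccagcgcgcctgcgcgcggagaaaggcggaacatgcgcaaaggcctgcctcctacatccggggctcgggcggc
Eif5b: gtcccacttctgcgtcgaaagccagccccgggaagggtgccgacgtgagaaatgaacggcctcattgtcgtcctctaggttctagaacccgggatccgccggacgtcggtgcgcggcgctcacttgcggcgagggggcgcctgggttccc
Eif5: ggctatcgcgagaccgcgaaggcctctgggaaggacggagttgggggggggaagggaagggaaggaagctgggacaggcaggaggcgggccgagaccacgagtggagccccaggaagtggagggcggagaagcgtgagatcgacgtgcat
The Eif3c sequence holds 1 CCGGAAG, of 2 in the 150 bases before its RefSeq start site, and the other sequences hold neither motif. In the 250 bases before the start site, CCGGAAG was found in 10 of the 43 initiation factor genes with a RefSeq promoter (23.3%), in 15.5% of the 8816 tested genes with one and in 7.14% of all 27025 promoters of that length. CCAAT was found in 27.9%, 36.8% and 34.4%, and the E-box CACGTG in 16.3%, 8.67% and 6.02%. The median GC content was 59.6% for initiation factors and 60.0% for tested genes. Of the called genes with a promoter, Eif3c held CCGGAAG, Eif2b4 held CCAAT and none held CACGTG. The RefSeq start site of Eif2b4 lies 291 bases inside the gene as annotated in the count files. The bases searched for Eif2b4, with the CCAAT, are therefore not upstream of that gene. For Eif4g1 the start site lies 4414 bases inside.

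Eif1 and the eIF1A genes, which keep the scanning ribosome from stopping at the wrong codon, did not change at the threshold. The log2 fold change was -0.03 ± 0.18 for Eif1, 0.42 ± 0.27 for Eif1b, 0.13 ± 0.17 for Eif1a, 0.13 ± 0.17 for Eif1ad and -0.51 ± 0.24 for the X-linked Eif1ax (adjusted p = 0.192). eIF1 and eIF5 act against each other in start codon choice, and the log2 ratio of Eif5 to Eif1 within an embryo was 3.73 ± 0.84 in controls (SD, n = 9) and 2.92 ± 0.50 in Ehmt2Mat embryos (SD, n = 10). All 10 Ehmt2Mat embryos lay below the control median. The difference of -0.80 had p = 0.019 in an exact two-sided permutation test, and did not pass after adjustment over the 11 pairs tested (adjusted p = 0.155).

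All 4 genes for proteins that bind and block eIF4E had lower means in Ehmt2Mat embryos, and 1 of them passed the threshold. Eif4ebp1, the 4E-BP that mTORC1 phosphorylates, lies at chr8:27260327-27275656 (plus strand). It spanned 112 to 395 CPM (median 191) over the controls and 28.8 to 202 CPM (median 89.7) over the Ehmt2Mat embryos, with 7 of 10 Ehmt2Mat embryos below every control. Its log2 fold change was -1.08 ± 0.29 (SE; adjusted p = 0.0216), and -1.47 without the 6 embryos with Ovgp1 above 100 CPM. Without control 7, the highest of its group, the adjusted p was 0.052.

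Eif4ebp2, a second 4E-BP, spanned 6.34 to 120 CPM (median 52.7) over the controls and 4.26 to 37.3 CPM (median 21.5) over the Ehmt2Mat embryos, all 10 below the control median. Controls 6, 7 and 8, at 6.34 to 17.8 CPM, lay within the Ehmt2Mat range. The log2 fold change of -1.34 ± 0.45 (SE; adjusted p = 0.0616) was the lowest of the 51 and did not pass the threshold. Eif4ebp2 was called in 5 of 30 alternative fits, among them DESeq2, which called 15.1% of all genes against 9.35% here. Without the 6 embryos with Ovgp1 above 100 CPM its log2 fold change was -1.56, with an adjusted p of 0.236. Eif4enif1, the 4E transporter of mRNA granules, had -0.50 ± 0.21 (adjusted p = 0.152). Eif4ebp3 had -0.35 ± 0.50 at 9.62 ± 3.62 CPM in controls, and since 67.3% of its exonic bases belong also to Ankhd1, its counts are uncertain. The summed level of the 4 genes spanned 299 to 751 CPM (median 462) over the controls and 183 to 369 CPM (median 248) over the Ehmt2Mat embryos, so the groups overlapped.

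**Figure D5:**
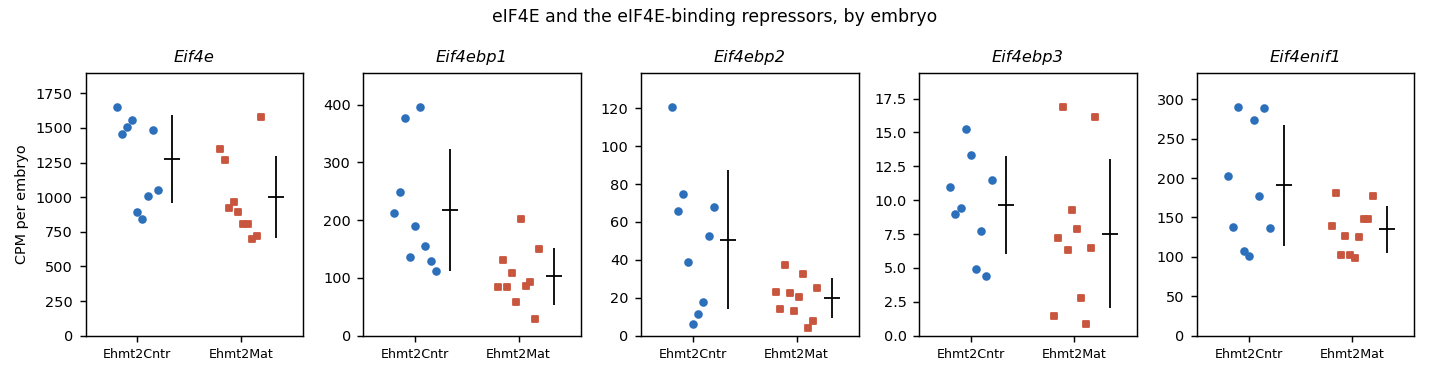
CPM of Eif4e and of the 4 genes for eIF4E-binding repressors in each embryo (blue circles, 9 Ehmt2Cntr; red squares, 10 Ehmt2Mat; y axes start at 0); the bar beside each group is the mean with its SD. Eif4ebp1 had 112 to 395 CPM in controls and 28.8 to 202 CPM in Ehmt2Mat embryos, and all 5 genes overlap between groups.

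Eif4e itself, the cap-binding protein, spanned 845 to 1648 CPM (median 1459) over the controls and 698 to 1576 CPM (median 911) over the Ehmt2Mat embryos, with a log2 fold change of -0.35 ± 0.18 (SE; adjusted p = 0.257). The log2 ratio of Eif4ebp1 to Eif4e was -2.64 ± 0.79 in controls (SD, n = 9) and -3.40 ± 0.71 in Ehmt2Mat embryos (SD, n = 10), and 9 of 10 Ehmt2Mat embryos lay below the control median (exact permutation test, p = 0.0407; adjusted p = 0.155). The log2 ratio of Eif4ebp2 to Eif4e differed by -0.73 (exact permutation test, p = 0.124; adjusted p = 0.228). For Eif4e2, a cap-binding homologue used in repression, the ratio to Eif4e was higher by 0.47 on the log2 scale (exact permutation test, p = 0.0564; adjusted p = 0.155). Eif4e3 had a log2 fold change of -0.88 ± 0.67, the largest of the cap-binding genes, at 11.9 ± 9.86 CPM in controls.

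No gene of the eIF4G, eIF4A, eIF5A, eIF2 kinase or other initiator tRNA groups passed the threshold. For the scaffolds the log2 fold changes were 0.26 ± 0.21 (Eif4g1), 0.06 ± 0.26 (Eif4g2) and -0.03 ± 0.35 (Eif4g3). The eIF4A helicase genes spread from 0.44 ± 0.19 for Eif4a3, the helicase of the exon junction complex, to -0.71 ± 0.39 for Eif4a1, with Eif4a2 at -0.20 ± 0.22. Their cofactor genes Eif4b and Eif4h stood at 0.30 ± 0.17 and -0.05 ± 0.15, and Eif4h had the highest level of the group per length in controls, 244 ± 55.7 RPKM. Eif5a stood at -0.41 ± 0.21 (adjusted p = 0.238) with 970 to 2607 CPM in a control and 761 to 2101 CPM in an Ehmt2Mat embryo. For the kinases the values were 0.04 ± 0.16 (Eif2ak1), 0.35 ± 0.54 (Eif2ak3) and 0.39 ± 0.99 (Eif2ak4), and for Eif2a and Eif2d, which can deliver tRNA without eIF2, 0.08 ± 0.20 and 0.14 ± 0.21.

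The balance of 11 pairs of factors within an embryo was tested, with 0 past the adjusted threshold. The 2 at an unadjusted p under 0.05, Eif5 to Eif1 and Eif4ebp1 to Eif4e, are not paralogs. The log2 ratio of Eif1a to Eif1ax was 1.30 ± 0.53 in controls (SD, n = 9) and 1.92 ± 0.73 in Ehmt2Mat embryos (SD, n = 10; exact permutation test, p = 0.0545). Eif1ax is X-linked, and 5 of 9 controls and 8 of 10 Ehmt2Mat embryos were male by Y-linked counts. Neither this test nor the fold change of Eif1ax given above took sex into account. Differences for the other pairs were 0.85 for Eif4a2 to Eif4a1, 0.35 for Eif1b to Eif1, -0.07 for Eif4g2 to Eif4g1, -0.08 for Eif4g3 to Eif4g1, 0.34 for Eif3j2 to Eif3j1 and 1.10 for Eif5a2 to Eif5a, with adjusted p between 0.228 and 0.871.

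Among embryos without maternal G9a, a zygotic Ehmt2 copy made no difference that passed the threshold. Of 51 initiation factors, 0 were called between 5 Ehmt2M/Z and 5 Ehmt2M/+ embryos by edgeR (0% of 12195 genes), and DESeq2 also called 0. At an unadjusted p under 0.05 there was 1 (1.96%, against 2.21% of all genes), Eif4ebp1, with 73.2 ± 30.7 CPM in Ehmt2M/Z (SD, n = 5) and 132 ± 47.2 CPM in Ehmt2M/+ embryos (SD, n = 5). The log2 fold changes of the 51 genes ranged from -0.88 to 0.81. When only embryos with the zygotic genotype +/- were compared (5 Ehmt2Mat and 3 Ehmt2Cntr), 0 initiation factors and 1 of 13401 genes were called. The 8 genes called above had log2 fold changes of 0.72 (Eif3c), 0.61 (Eif2b3), 0.85 (Eif2b4), 0.69 (Eif3h), 0.53 (Eif5b), -0.48 (Eif3a), -0.36 (Eif5) and -0.84 (Eif4ebp1). All kept their sign, but these embryos are among those that gave the calls, so the signs are not independent of them.

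The wider pathway was read from lists outside the symbol rule. For scale, 9.35% of all tested genes were called, and 19.2% in the fit of genes with at least 10 counts in every embryo. The lists are short, and their counts were not tested against these shares. Of 15 other initiation and reinitiation factors, 3 rose and 1 fell. Bzw2, an eIF5 mimic, rose from 199 ± 67.3 to 448 ± 97.4 CPM (log2 fold change 1.17, adjusted p = 0.000922). Eif6, which keeps the large subunit from joining early, rose by 0.58 and Paip2b, an inhibitor of poly(A)-binding protein, by 0.76. The X-linked helicase gene Ddx3x fell by 1.24 on the log2 scale (adjusted p = 0.0157). It spanned 236 to 1353 CPM over the controls, 5 of them above every Ehmt2Mat embryo, and 143 to 443 CPM over the Ehmt2Mat embryos. By Y-linked counts, 5 of 9 controls and 8 of 10 Ehmt2Mat embryos were male, and this fit had no covariate for sex. Of 13 tested elongation and termination factors, Eef2, the translocase, rose from 847 ± 345 to 1810 ± 781 CPM (log2 fold change 1.10) and Eef1d rose by 0.92. Of 9 tested genes of the integrated stress response, the pathway that phosphorylated eIF2 sets off, 1 was called: Ppp1r15a (GADD34), which brings a phosphatase to eIF2, had 2.15 to 41.9 CPM in controls and 26.8 to 154 CPM in Ehmt2Mat embryos (log2 fold change 1.82, adjusted p = 0.00544). In all, 7 of the 9 log2 fold changes were positive, among them Atf4 with 0.46 (adjusted p = 0.117) and Ddit3 with 0.40. Trib3 (-0.03) and Nck1 (-0.73) were negative. Of 13 genes of mTORC1 and MNK signalling, 4 of hypusine synthesis and 2 mitochondrial initiation factors, 0 were called. The medians of these 6 lists, in the order given, were 0.06, 0.05, 0.59, 0.03, 0.03 and -0.06, against -0.04 over all genes. Pathway calls are given for all embryos only. The highest values of Ppp1r15a (154 CPM, Ehmt2Mat 2) and Eef2 (3740 CPM, Ehmt2Mat 3) came from embryos with Ovgp1 above 100 CPM.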

How the data were processed

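The authors deposited raw counts per Ensembl gene and embryo, without normalization. Per the file headers they came from featureCounts 1.5.0-p1 on exons of Ensembl release 82 (GRCm38), with at least 10 overlapping bases, reads counted for every gene they overlap and reads flagged as multi-mapping kept. No strand setting was given, so antisense genes are not separated. The labels name TopHat2, featureCounts and DESeq2, and the study's methods describe bowtie and uniquely mapping reads for repeats. The aligner behind these counts was not settled, and reads were single-end and 50 bp long. Control embryo 4 was not analysed here.

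Of the 34937 gene IDs, 34599 had a symbol. Counts were tested with edgeR 4.0.16 in R 4.3.3 (filterByExpr, TMM, quasi-likelihood F test, Benjamini-Hochberg adjustment over all tested genes, threshold 0.05), without covariates. The SE of a log2 fold change is its size over the square root of F. CPM use TMM-scaled library sizes. Log2 ratios within an embryo used a prior count of 2 and exact two-sided permutation tests over all 92378 splits. The scripts were tested on simulated data. Named were all called members, the highest and most changed member of each role, all members of the pairs, and the called genes of each pathway list. Some uncalled genes of the stress response list were named as well. Members, lists and pairs were chosen with earlier results of these data known. Alternatives were RLE and upper-quartile scaling, DESeq2 1.42.0, no filter or at least 10 counts in every embryo, the replicate block, sex, thinning, exon length, a log2 fold change of at least 1, zygotic +/- embryos, other prior counts, each embryo left out and, added later, embryos with Ovgp1 above 100 CPM left out.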

Additional observations from a re-analysis of the deposited data

Results flagged for a closer look

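In 86 groups of values (named members on the log2(CPM + 1) scale and log2 ratios, by group), 5 had an embryo whose gap to its neighbour was large for the range. Chance gives 5% for independent groups. These groups share embryos and genes, as with the level and the ratio of Eif5a2, so that rate cannot judge the 5. Ehmt2Mat 3, the embryo with the lowest total count and the highest Ovgp1, was the lowest in 4 of the 5. Its Eif3a value was 8.51 and the next 9.17 (gap over range 0.5646), its Eif4e3 value 0 and the next 2.53 (0.6916), its Eif5a2 value 0 and the next 2.29 (0.5526), and its log2 ratio of Eif5a2 to Eif5a -13.08 and the next -8.25 (0.7136). Control 3 had the lowest Eif3j1 value of its group, 4.17, with the next at 5.42 (0.5223). Without Ehmt2Mat 3, Eif3a remained called, and so did the other 7 genes.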

How the results depend on the processing

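The 5 higher genes were the same 5 under RLE, upper-quartile scaling, DESeq2, no filter, at least 10 counts in every embryo, the replicate block, sex, thinning, exon length and each embryo left out (range 5 to 5), and the lower count was 3 to 4 in all of these but the replicate block, where it was 2. The added gene was Eif4ebp2 under DESeq2, at least 10 counts in every embryo and without control 6, and without Ehmt2Mat 3. Without control 7, Eif4ebp2 replaced Eif4ebp1. Counts moved to 0 higher and 0 lower with zygotic +/- embryos only, to 0 and 1 (Eif4ebp1) with a log2 fold change of at least 1, and to 3 and 1 without the 6 embryos with Ovgp1 above 100 CPM, where fewer embryos (8 and 5) were compared, 321 of 11952 genes were called and 4 of 52 initiation factors (7.69%, against 2.69% of genes). The cause of these losses beyond the number of embryos was not tested. All 8 genes kept their sign in all 30 alternative fits, but these reuse the embryos that gave the calls and are not independent of them. Of the 32 named log2 fold changes, 11 took the other sign in at least 1 alternative, with adjusted p of at least 0.817 there. With zygotic +/- embryos only, these were Eif2b1 (0.11), Eif2ak1 (-0.35), Eif2ak4 (-0.57), Eif4g1 (-0.020), Eif4e2 (-0.050) and Eif4g3 (0.41), and the median of the eIF2 kinases went from 0.35 to -0.35 and that of the eIF5A genes from -0.115 to 0.69. Without the 6 embryos they were Eif2ak4 (-0.32), Eif1 (0.074) and Eif5a2 (-0.17), with the replicate block Eif2b1 (0.0016) and Eif4g3 (0.23), and Eif4g3 also under upper-quartile scaling (0.0087) and exon length (0.12). With each embryo left out, Eif2ak1 spanned -0.021 to 0.10, Eif4h -0.10 to 0.0076, Eif4g2 -0.064 to 0.17, Eif2a -0.0049 to 0.17, Eif1 -0.12 to 0.078, Eif4g3 -0.18 to 0.19 and Eif5a2 -0.081 to 0.55. The ratios of Eif4g2 and Eif4g3 to Eif4g1 turned with zygotic +/- embryos only (0.71 and 0.52), that of Eif4g3 also with the replicate block (0.014), and they spanned -0.27 to 0.11 and -0.31 to 0.13 over embryos left out. Among ratios, 0 pairs passed in all settings except without control 1, where Eif5 to Eif1 did (-0.98, adjusted p = 0.0342), so the range over embryos left out was 0 to 1. Between Ehmt2M/Z and Ehmt2M/+, the count stayed at 0 in 14 alternatives. Of the 10 highest members per length, 6 were among the 10 highest by CPM. The replicate block leaves out Ehmt2Mat 4, which has no control of its number here. It called 7 initiation factors and 693 genes, against 8 and 884 without that embryo and without the block and 8 and 1099 with all embryos, and Eif3a was the one lost (-0.61, adjusted p = 0.052). The numbers do not pair the embryos: the deviations of the 9 same-numbered pairs had a mean correlation of 0.0125 (range -0.156 to 0.0856) and 0 controls were closest to their own number.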
